A study of Mus musculus with 23 samples.

Results

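A set of 10 genes that sense and carry bile acids in the gut was followed through the colon of mice colonized with *Bacteroides fragilis* strains of low or high bile salt hydrolase (BSH) activity. They were the receptor genes Nr1h4, Vdr, Gpbar1 and Nr1i2, the target genes Nr0b2 and Fgf15, and the transport genes Slc10a2, Slc51a, Slc51b and Fabp6. A gene was a member if its symbol was on this list. The rule itself used no measured value, but the list was chosen with earlier results of these data known. The 10 members stood among 55449 genes with an entry in the deposited RNA-seq table. The study fed male C57BL/6 mice of the Cdx2Apc f/w genotype, 6 to 8 weeks old at the start, a 60% high-fat diet (HFD). Every mouse received an antibiotic cocktail in its water and was then gavaged with *B. fragilis* 638R that carried either an empty vector (BF BSHlow) or the bsh gene of strain NCTC9343 (BF BSHhigh). The 23 libraries formed 6 groups, which were normal colon after 2 weeks of colonization, colon non-tumor tissues after 12 weeks, and colon tumors after 12 weeks, each under both strains. There were 4 libraries in each group, except for 3 from BF BSHhigh tumors. In Cdx2Apc f/w mice, Cre recombinase under the Cdx2 promoter acts on 1 floxed allele of the tumor suppressor gene Apc, so all groups carried this deletion and none was free of the diet or of *B. fragilis*.

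The labels did not tie a library to a mouse, so p-values here measure the spread between libraries, and a tumor and a non-tumor library may share a mouse. The 3 columns used for BF BSHhigh tumors repeat BF BSHlow tumor names in the header of the deposited table. The study's own listing gives the same values under BF BSHhigh tumors without replicate numbers, so they are called a, b and c. Library totals ran from 12401388 to 17903008 counts, with a median of 15874872. Levels are given in CPM, the counts of a gene scaled to a common library size after correction by the trimmed mean of M-values (TMM). The tissue labels were checked with summed CPM of marker genes. The 4 WNT targets Axin2, Nkd1, Lgr5 and Notum, which rise when Apc is lost, summed to between 643 and 1420 in tumors and to between 27.3 and 52.0 in all other libraries. The 6 epithelial markers, Epcam and keratins among them, summed to at least 4466 CPM in every library. Smooth muscle markers summed to between 1393 and 7081 CPM in the non-tumor tissues, to between 6.57 and 196 CPM in the normal colon of 2 weeks and to between 106 and 302 CPM in tumors.

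Bile acids reach the intestine as conjugates with taurine or glycine, and bacterial BSH removes the amino acid. In the epithelium, Slc10a2 encodes the apical sodium-dependent transporter (ASBT) that takes up conjugated bile acids, Fabp6 encodes the cytosolic carrier, and Slc51a and Slc51b encode the subunits OSTα and OSTβ of the basolateral exporter, which works as a dimer. Nr1h4 encodes the farnesoid X receptor (FXR), which dimerizes with RXR and switches on Nr0b2, Fgf15, Fabp6, Slc51a and Slc51b. Vdr and Nr1i2 encode the vitamin D receptor and the pregnane X receptor (PXR), both of which lithocholic acid can activate, and Gpbar1 encodes the membrane receptor TGR5. The ileum is the main site of Slc10a2, Fabp6 and Fgf15 in mice.

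The promoter sequences of the 4 transport genes are shown because these genes set the pattern over time described further on, and because 3 of them are known FXR targets. RefSeq promoter entries (GRCm38.p6) matched 9 of the 10 members, all but Fgf15. Letters are given 5′ to 3′ on the strand of the gene, upstream of both the RefSeq start and the first base of the gene model in the counting annotation. The 250 bases before the RefSeq start were searched, of which the windows of Slc10a2 and Slc51b show the 186 and 68 bases outside the gene model. Capitals mark matches to the searched motifs on either strand.
Slc10a2, chr8:5105352-5105537, minus strand: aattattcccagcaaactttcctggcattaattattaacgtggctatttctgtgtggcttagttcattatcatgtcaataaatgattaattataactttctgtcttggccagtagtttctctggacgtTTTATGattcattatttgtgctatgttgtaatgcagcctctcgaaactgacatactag
Slc51a, chr16:32487880-32488129, minus strand: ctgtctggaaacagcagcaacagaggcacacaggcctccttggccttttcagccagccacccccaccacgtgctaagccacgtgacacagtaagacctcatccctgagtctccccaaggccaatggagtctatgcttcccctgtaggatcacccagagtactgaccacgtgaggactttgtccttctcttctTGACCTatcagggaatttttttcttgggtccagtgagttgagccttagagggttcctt
Slc51b, chr9:65422956-65423023, minus strand: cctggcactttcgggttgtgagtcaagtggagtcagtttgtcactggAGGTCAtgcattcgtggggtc
Fabp6, chr11:43601563-43601812, minus strand: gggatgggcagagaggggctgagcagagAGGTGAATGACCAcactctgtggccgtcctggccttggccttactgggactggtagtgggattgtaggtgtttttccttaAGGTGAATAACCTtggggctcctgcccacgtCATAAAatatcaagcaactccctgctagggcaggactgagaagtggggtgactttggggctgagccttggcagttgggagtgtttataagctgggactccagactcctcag

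In the Slc10a2 window, the capitals mark TTTATG, the letters bound by CDX factors, which lay 122 to 117 bases before the RefSeq start. The Slc51a window held the nuclear receptor hexamer AGGTCA on the opposite strand, 58 to 53 bases before the start, and the Slc51b window held it on the strand of the gene, 203 to 198 bases before the start. In the Fabp6 window, the capitals mark 2 matches to the inverted repeat AGGTCANTGACCT, an arrangement that FXR with RXR can bind, at 222 to 210 and at 142 to 130 bases before the start, each with 2 mismatches, and TTTATG on the opposite strand at 111 to 106. Over 32851 upstream windows of 250 bases, 14% held AGGTCA, 0.959% held the inverted repeat with up to 2 mismatches and 10.8% held TTTATG. Of the other 5 members with an entry, Nr1h4 held AGGTCA and TTTATG, and no match was found in the other 4. The 2 kinds of nuclear receptor match overlap by construction, and a match describes letters, not binding.

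All 10 members had at least 1 count in at least 6 libraries, but their levels fell into separate ranges. Nr1h4, Vdr, Nr1i2 and Slc10a2 had more than 3 counts in all 23 libraries. Slc51b exceeded 3 counts in 19 libraries, Fabp6 in 20, Slc51a in 11 and Gpbar1 in 9. Nr0b2 reached 12 counts in total and Fgf15 14, with at most 4 and 5 in any library, so no fold is given for either. The models of Slc51a, Slc51b and Fgf15 overlap other genes on the opposite strand (Pcyt1a, Rasl12, and Gm26793 with Gm39119, respectively), and their counts are less certain, since the kit kept strand but the strand setting of the counting was not given in the sources used here.

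To compare members with each other, CPM was divided by the length of merged exons, giving CPM per kilobase. In normal colon after 2 weeks, the levels of Slc10a2, Vdr, Slc51b and Slc51a were highest under BF BSHlow. Slc10a2 was at 129 ± 53.0 (SD, n = 4) under BF BSHlow and 161 ± 78.3 under BF BSHhigh, and Vdr at 123 ± 13.0 and 124 ± 21.4. Under BF BSHhigh, Fabp6 also stood among them, at 118 ± 110 against 115 ± 53.5 for Slc51a. The ranges of neighbours among these genes overlapped, as did those of Nr1h4, Nr1i2 and Fabp6 under BF BSHlow. In the non-tumor tissues after 12 weeks, Vdr stood first at 65.4 ± 8.18 and 59.6 ± 5.7 CPM per kilobase, followed by Nr1i2 at 33.8 ± 4.85 and 32.3 ± 2.52, with no overlap between the 2 genes. Nr1h4 came next at 18.8 ± 3.57 and 18.2 ± 1.93 CPM per kilobase and overlapped with Slc51b. In BF BSHlow tumors, Slc10a2, Nr1i2 and Vdr lay between 2.31 and 2.53 CPM per kilobase and could not be ordered. In BF BSHhigh tumors (n = 3), Vdr was at 8.11 ± 2.67 and Nr1i2 at 7.45 ± 3.6 CPM per kilobase, with overlapping ranges.

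**Figure D1:**
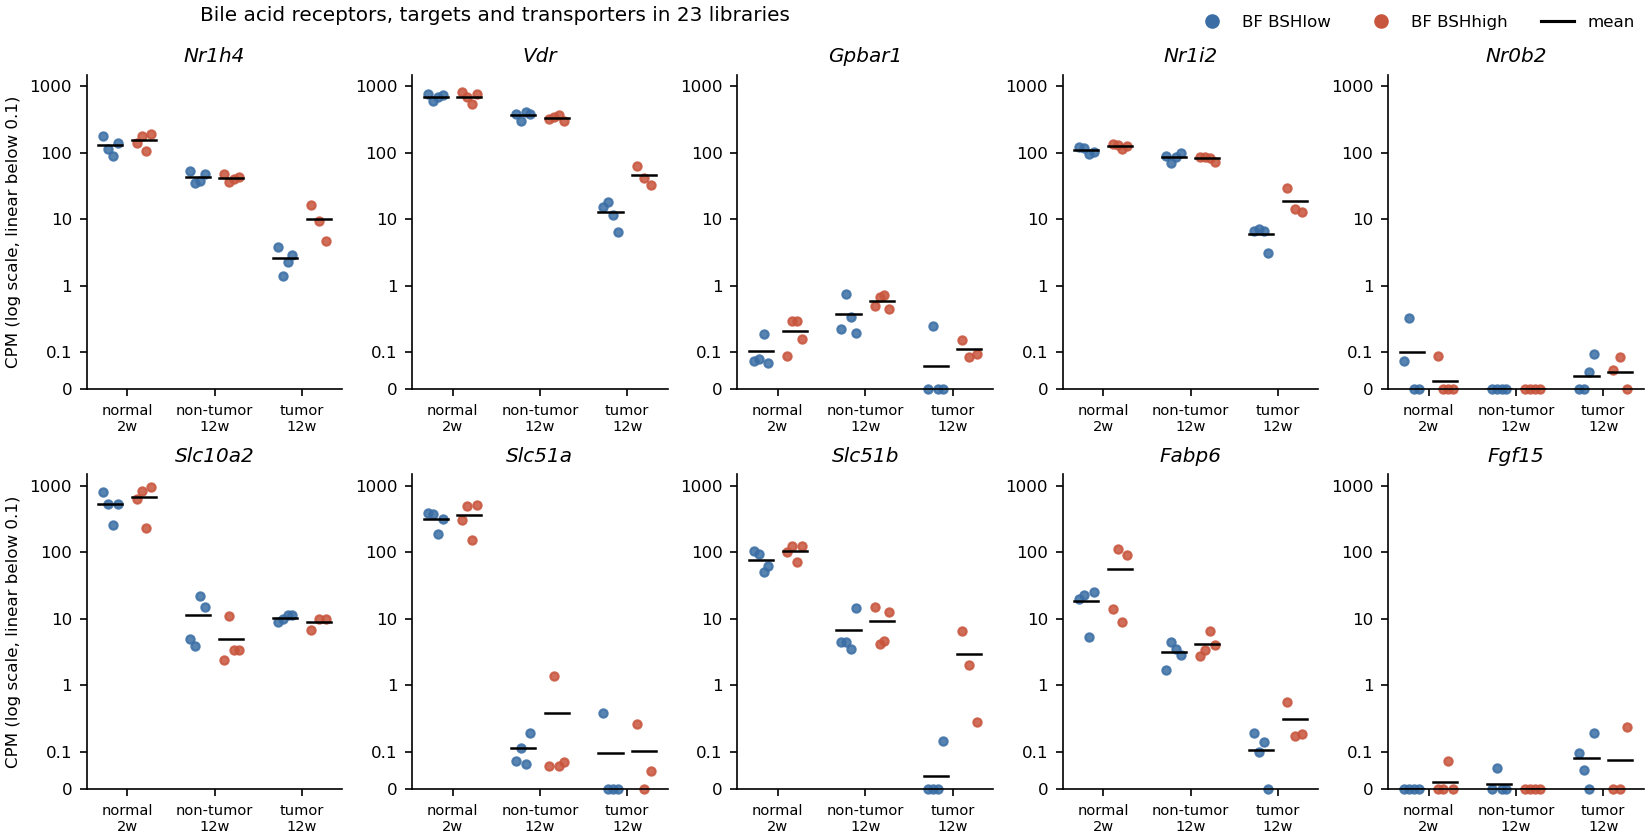
Level of each of the 10 members in all 23 libraries, by tissue and time. The vertical axes give CPM on a log scale that is linear below 0.1, each point is 1 library, blue for BF BSHlow and red for BF BSHhigh, and short lines are group means. Vdr, Nr1h4 and Nr1i2 step down from non-tumor tissues to tumors, and Slc10a2 and Slc51a from 2 to 12 weeks.

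The first comparison asked how the members differed between colon tumors and non-tumor tissues after 12 weeks. The receptors FXR, VDR and PXR were all lower in tumors under both strains, by 14.5 to 28.2 times under BF BSHlow and by 4.11 to 7.38 times under BF BSHhigh. The carrier Fabp6 was lower as well. The uptake transporter Slc10a2 did not pass the test under either strain. Of the 10 members, 7 passed the filter on low counts. Under BF BSHlow, 6 of these were lower in tumors and 0 higher at a Benjamini-Hochberg adjusted p under 0.05 in edgeR's quasi-likelihood test, where 32.2% of the 16454 genes tested were lower and 33.3% were higher. Under BF BSHhigh, 5 were lower and 0 higher, with 27.2% of all genes lower and 29.4% higher. The median log2 fold change of the tested members was -4.02 and -2.13 under the 2 strains, against 0.04 over all genes in both. Gpbar1, Slc51b and Fabp6 passed the filter mainly through the non-tumor libraries, where they were higher. The counts of members called, and the adjusted p of these genes given below, are therefore a description.

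Vdr, the vitamin D receptor, stood at 379, 305, 414 and 380 CPM in the BF BSHlow non-tumor tissues and at 15.5, 18.4, 11.7 and 6.53 CPM in the tumors. Under BF BSHhigh it stood at 323, 349, 375 and 300 CPM in non-tumor tissues and at 62.6, 41.5 and 33.4 CPM in tumors a, b and c. All tumors lay below all non-tumor tissues, with the BF BSHlow tumors the lowest. The log2 fold change was -4.82 ± 0.29 (SE, adjusted p = 2.04e-08) under BF BSHlow and -2.88 ± 0.30 (adjusted p = 3.27e-06) under BF BSHhigh.

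Nr1h4, encoding FXR, was measured at 52.7, 35.5, 37.2 and 47.5 CPM in BF BSHlow non-tumor tissues and at 3.81, 1.42, 2.32 and 2.95 CPM in the tumors. The BF BSHhigh libraries gave 47.3, 36.5, 40.8 and 42.6 CPM in non-tumor tissues and 16.6, 9.46 and 4.73 CPM in tumors. The groups did not overlap under either strain, and BF BSHhigh tumor c came closest to the BF BSHlow tumors. FXR had log2 fold changes of -4.02 ± 0.35 (adjusted p = 3.02e-07) and -2.04 ± 0.35 (adjusted p = 0.000229), respectively.

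Nr1i2, encoding PXR, followed the same order. It was at 89.0, 69.4, 87.4 and 99.3 CPM in non-tumor tissues and 6.61, 7.28, 6.71 and 3.14 CPM in tumors under BF BSHlow. Under BF BSHhigh it was at 85.9, 87.7, 83.3 and 73.3 CPM against 29.6, 14.5 and 13.0 CPM. Tumors and non-tumor tissues did not overlap, and the log2 fold changes were -3.85 ± 0.28 (adjusted p = 6.93e-08) and -2.13 ± 0.29 (adjusted p = 3.28e-05).

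Gpbar1, encoding TGR5, was near the floor of the counts everywhere. Its counts were 3, 13, 5 and 3 in BF BSHlow non-tumor tissues and 0, 5, 0 and 0 in the tumors, and 8, 11, 12 and 6 against 3, 2 and 2 under BF BSHhigh. The groups overlapped under BF BSHlow through tumor 2 and did not overlap under BF BSHhigh. Summed over libraries, the level was 6.50 times higher in non-tumor tissues than in tumors under BF BSHlow (95% exact interval 2.43 to 21.8) and 5.37 times higher under BF BSHhigh (2.36 to 14.3). These intervals cover counting error only. In the edgeR fit the adjusted p was 0.0198 and 0.0304, and the latter call was lost without any 1 of tumors a, b and c (adjusted p = 0.0572, 0.0997 and 0.0981).

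Of the members, Slc51b, the OSTβ subunit, had the largest fold between the 2 kinds of tumor, resting on 3 counts under BF BSHlow. Its level was 4.49, 4.57, 3.53 and 14.7 CPM in BF BSHlow non-tumor tissues, while the tumors held 0, 0, 0 and 3 counts. BF BSHhigh non-tumor tissues stood at 15, 4.22, 4.66 and 12.9 CPM, and tumors a, b and c at 6.63, 2.03 and 0.284 CPM, from 128, 46 and 6 counts. Under BF BSHlow the ranges were far apart, whereas under BF BSHhigh tumor a lay inside the non-tumor range. Over the summed counts, the non-tumor level was 189 times the tumor level under BF BSHlow (interval 64.1 to 918) and 3.17 times under BF BSHhigh (2.68 to 3.77). The adjusted p was 9.39e-05 under BF BSHlow, and 0.11 under BF BSHhigh with a log2 fold change of -1.64 ± 0.84. Without tumor a, the BF BSHhigh difference passed at -2.98 (adjusted p = 0.0179).

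Fabp6, the cytosolic bile acid carrier, stood at 1.72, 4.46, 3.6 and 2.91 CPM in BF BSHlow non-tumor tissues and at 2.77, 3.41, 6.63 and 4.08 CPM in BF BSHhigh ones. The tumors held 4, 2, 3 and 0 counts under BF BSHlow and 11, 4 and 4 under BF BSHhigh. No tumor reached the lowest non-tumor tissue of its strain. The ratio of non-tumor tissues to tumors was 29.8 (interval 15.4 to 66.1) under BF BSHlow, with an adjusted p of 9.01e-06, and 14.1 (8.82 to 23.7) under BF BSHhigh, with an adjusted p of 0.000133.

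Slc10a2, the uptake transporter, did not separate tumors from non-tumor tissues. It was at 4.93, 3.94, 22.5 and 15.2 CPM in BF BSHlow non-tumor tissues and 8.87, 10.1, 11.4 and 11.7 CPM in the tumors. BF BSHhigh non-tumor tissues gave 2.40, 10.9, 3.44 and 3.42 CPM, and the tumors 6.84, 10.1 and 9.83 CPM. The ranges overlapped under both strains. The log2 fold change was -0.15 (95% interval -1.27 to 0.97, adjusted p = 0.815) under BF BSHlow and 0.82 (-0.41 to 2.04, adjusted p = 0.237) under BF BSHhigh. Non-tumor tissue 2 decided the second value, since without it Slc10a2 was higher in BF BSHhigh tumors by 1.53 (adjusted p = 0.0275).

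The remaining members were at or near 0. The OSTα gene Slc51a had 1, 2, 1 and 3 counts in BF BSHlow non-tumor tissues and 8, 0, 0 and 0 in the tumors, and 1, 22, 1 and 1 against 5, 0 and 1 under BF BSHhigh. Nr0b2, the FXR-induced corepressor SHP, had 0 counts in all 8 non-tumor tissues, and at most 2 in a tumor. Fgf15, the FXR-induced hormone that restrains bile acid synthesis in liver, had 1 count in 1 of the 8 non-tumor tissues and at most 5 in a tumor. A total of 0 counts allows up to 3 counts by counting error, so differences in Nr0b2 and Fgf15 were not detectable at this depth.

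Other changes moved with these differences. The 6 differentiated colonocyte markers, Car1, Car4, Slc26a3, Aqp8, Krt20 and Guca2a, summed to between 1820 and 4565 CPM in non-tumor tissues. The sum was 108, 139, 67.8 and 53.8 CPM in BF BSHlow tumors and 732, 225 and 151 CPM in BF BSHhigh tumors a, b and c. All 6 markers fell in BF BSHlow tumors and 5 of 6 in BF BSHhigh tumors. Of the epithelial markers, which sum over all epithelial cells, 5 of 6 fell in BF BSHlow tumors and 4 of 6 in BF BSHhigh tumors. Krt18 went the other way and rose by 1.51 and 1.14. The medians over the 6 were -0.74 and -0.61, far smaller than the changes of the receptors. In whole tissue, fewer cells that express a member cannot be told apart from less RNA per cell, and the part of cell composition in these results was not tested.

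**Figure D2:**
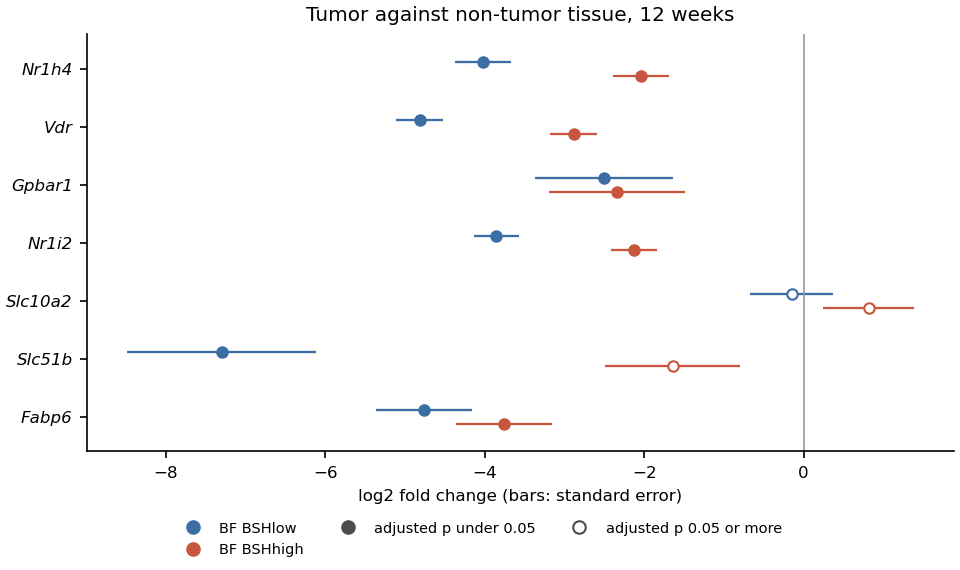
Log2 fold change of tumor against non-tumor tissues for each member tested, under BF BSHlow and BF BSHhigh. Points are edgeR estimates, filled where the adjusted p is under 0.05, and bars are standard errors. Vdr, Nr1h4 and Nr1i2 sit between -4.82 and -3.85 under BF BSHlow and between -2.88 and -2.04 under BF BSHhigh, and Slc10a2 sits at -0.15 and 0.82 with open points.

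The next comparison asked whether the members differed between BF BSHhigh and BF BSHlow tumors. Nr1h4, Vdr and Nr1i2 were 3.15 to 3.81 times higher in BF BSHhigh tumors, and each BF BSHhigh tumor lay above each BF BSHlow tumor, but none passed the test after adjustment. In edgeR's quasi-likelihood test, 0 of the 4 members tested passed an adjusted p of 0.05, where 0.509% of 15325 genes did. The unadjusted p was under 0.05 for 3 of the 4 members and for 1946 genes. DESeq2 called 3 and limma-voom 0. Vdr differed by 1.79 ± 0.34 on the log2 scale (95% interval 1.0 to 2.58, adjusted p = 0.0627, range over alternatives 4.19e-05 to 0.223), Nr1h4 by 1.93 ± 0.47 (0.85 to 3.01, adjusted p = 0.114, range 0.00112 to 0.45) and Nr1i2 by 1.66 ± 0.37 (0.81 to 2.50, adjusted p = 0.0901, range 0.000166 to 0.313). Slc10a2 was at -0.25 ± 0.19 (-0.70 to 0.19, adjusted p = 0.642).

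Slc51b was the other member whose tumor groups did not overlap. The ratio of its summed level between BF BSHhigh and BF BSHlow tumors was 78.4, with an exact counting interval of 26.4 to 384 that rests on 3 counts in the lower group. The low-count filter had kept Slc51b out of this test, and without the filter its adjusted p was 0.0337. Of the 4 members tested, 3 (Nr1h4, Vdr and Nr1i2) were higher in BF BSHhigh tumors without overlap, as were 8.3% of the genes tested, and Slc51b, outside the test, was not counted in that share. The medians were 1.72 over the 4 members tested and -0.03 over all genes. Tumor a was the highest of the 3 in each of these 4 genes and tumor c the lowest.

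The sum of the colonocyte markers was also highest in tumor a and lowest in tumor c, although Car1 and Car4 were lowest in tumor b. Of the 6 markers, Aqp8 and Slc26a3 rose in BF BSHhigh tumors, by 6.4 (adjusted p = 0.0406) and 6.25 (adjusted p = 0.0481) on the log2 scale. The 8 small intestinal enterocyte markers, with 0 of 4 tested past the threshold, summed to between 4.96 and 22.2 CPM in BF BSHhigh tumors and to between 0.532 and 1.88 CPM in BF BSHlow tumors. The 4 B and plasma cell markers also stood apart, between 87.8 and 118 CPM in BF BSHhigh tumors against 0.290 to 5.62 CPM, as did the 4 T cell markers, between 13.3 and 21.3 CPM against 0.910 to 10.1 CPM, with 0 of 4 past the threshold. Of the enteroendocrine markers, 1 of 5 tested rose, Chga, by 2.38 (adjusted p = 0.0421), while the sums of all 6 overlapped. The part of these cell types in the members' values was not tested.

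Whether the difference between strains was itself larger in tumors than in non-tumor tissues was tested as an interaction. Of 7 members tested, 2 passed with a larger BSHhigh difference in tumors and 0 the other way, with 0.991% of 16454 genes past the threshold. These were Vdr, at 1.93 ± 0.37 on the log2 scale (edgeR adjusted p = 0.0227), and Nr1i2, at 1.73 ± 0.38 (adjusted p = 0.0429). Nr1h4 was at 1.99 ± 0.47 (adjusted p = 0.0639) and Slc51b at 5.66 ± 1.48 (adjusted p = 0.102). Across alternatives the adjusted p ran from 7.79e-05 to 0.0988 for Vdr and from 0.0015 to 0.126 for Nr1i2, and DESeq2 called 4 members and limma-voom 0. Without tumor a, Vdr was at 1.66 (adjusted p = 0.0673) and Nr1i2 at 1.27 (adjusted p = 0.0967). The colonocyte markers had 4 of 6 genes past the same threshold, the enteroendocrine markers 4 of 6 (Insl5, Gcg, Chgb and Chga) and the B and plasma cell markers 1 of 4 (Jchain, adjusted p = 0.026). The part of these cell types in the interaction was not tested.

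In non-tumor tissues after 12 weeks, no difference between the strains was detected in any member. In the edgeR quasi-likelihood test, 0 of 6 members, and 0.0% of 14933 genes, passed the adjusted threshold. The unadjusted p was under 0.05 for 0 members and 1377 genes, and DESeq2 and limma-voom also called 0 members. The intervals were narrow for the receptors, from -0.38 to 0.12 for Vdr, -0.36 to 0.28 for Nr1h4 and -0.31 to 0.20 for Nr1i2 in log2 units. They were wide for the transporters, from -2.68 to 0.29 for Slc10a2, -0.86 to 1.73 for Slc51b and -0.39 to 1.21 for Fabp6. The medians were -0.05 over the members and -0.01 over all genes. The high Slc51b libraries were BF BSHlow 4 and BF BSHhigh 1 and 4, which also had the highest Gcg, at 34.1, 40.4 and 34.2 CPM against 16.4 to 21.9 CPM in the others. Among the other enteroendocrine markers, Insl5 was also highest in these libraries, and Pyy and Neurod1 did not set them apart. Chga and Chgb were lowest in BF BSHlow 4, at 50.4 and 68.4 CPM. The relation of Slc51b with these genes was not tested.

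In normal colon after 2 weeks, Fabp6 had the widest difference between the strains. It was at 20.3, 23.2, 5.28 and 25.8 CPM under BF BSHlow and at 14.1, 112, 9.07 and 90.1 CPM under BF BSHhigh. Replicates 2 and 4 of BF BSHhigh were above all other libraries, while replicates 1 and 3 were within the BF BSHlow range. The log2 difference was 1.57 ± 0.75 (95% interval -0.09 to 3.23, adjusted p = 0.737). In edgeR's test 0 of 7 members passed, where 0.00727% of 13752 genes, a single gene, did. The unadjusted p was under 0.05 for 0 members and 935 genes, and DESeq2 and limma-voom called 0 members. Vdr differed by 0.01 (-0.32 to 0.33), Nr1h4 by 0.23 (-0.25 to 0.72) and Nr1i2 by 0.19 (-0.05 to 0.43). The median was 0.24 over the members and 0.00 over all genes.

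**Figure D3:**
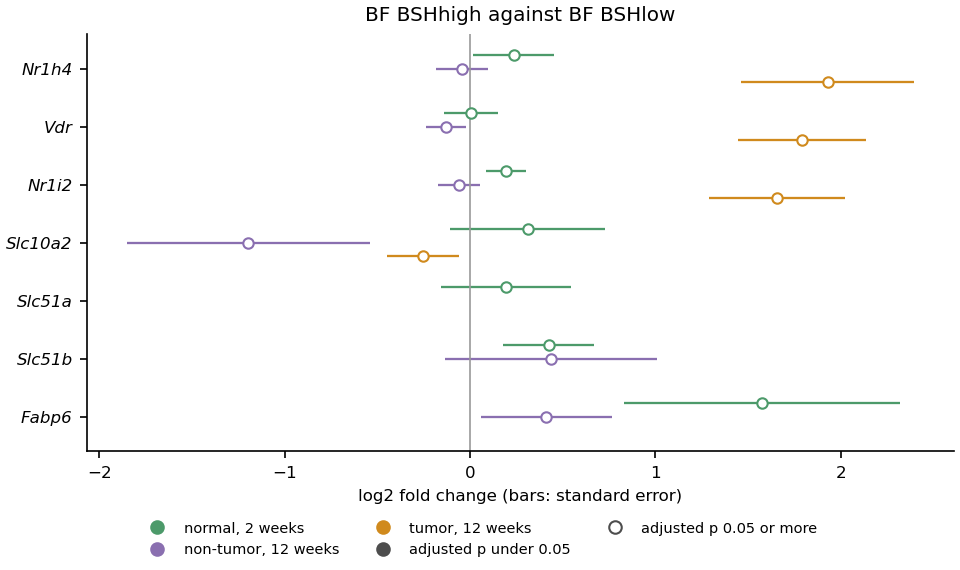
Log2 difference of BF BSHhigh against BF BSHlow for each member tested, in normal colon after 2 weeks, non-tumor tissues and tumors after 12 weeks. Points are edgeR estimates, filled where the adjusted p is under 0.05, and bars are standard errors. Vdr, Nr1h4 and Nr1i2 lie at 1.66 to 1.93 in tumors and between -0.13 and -0.04 in non-tumor tissues, and all points are open.

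The last comparison was between the normal colon of 2 weeks and the non-tumor tissues of 12 weeks. Slc51a, Slc10a2, Slc51b and Fabp6, the whole route from uptake to export, were lower at 12 weeks under both strains, and so were FXR, VDR and PXR by smaller factors. Under BF BSHlow, 7 of 7 members tested were lower and 0 higher in edgeR's test, where 23.5% of 15532 genes were lower and 25.6% higher. Under BF BSHhigh, 7 of 7 were lower and 0 higher, with 22.7% of genes lower and 27.0% higher. The medians were -2.55 and -3.50, against 0.00 and 0.03 over all genes. Slc51a passed the filter only through the libraries of 2 weeks, where it was high, and Gpbar1, which was higher at 12 weeks, did not pass it, so these counts and medians are a description.

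Slc51a, the OSTα subunit, was at 395, 377, 189 and 315 CPM in BF BSHlow normal colon after 2 weeks and at 305, 505, 155 and 510 CPM under BF BSHhigh. At 12 weeks the 8 non-tumor tissues held 1, 2, 1, 3, 1, 22, 1 and 1 counts. No library of 12 weeks came near those of 2 weeks. Summed over libraries, the level at 2 weeks was 2814 times that at 12 weeks under BF BSHlow (counting interval 1366 to 7001) and 918 times under BF BSHhigh (621 to 1418). Without BF BSHhigh non-tumor tissue 2, which held 22 of the 25 counts, the second ratio was 5661 (1937 to 27450). Slc51a passed the low-count filter only through the libraries of 2 weeks, so its adjusted p in edgeR's test, 6.60e-08 and 9.33e-08, is a description.

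Slc10a2 was at 798, 541, 259 and 543 CPM under BF BSHlow and at 631, 847, 230 and 970 CPM under BF BSHhigh after 2 weeks, against at most 22.5 CPM in non-tumor tissues of 12 weeks. Its log2 fold changes were -5.52 ± 0.67 (adjusted p = 1.19e-05) and -7.02 ± 0.73 (adjusted p = 3.10e-06). In both groups of 2 weeks, replicate 3 was the lowest. Slc51b was at 104, 94.9, 51.3 and 62.0 CPM and at 101, 125, 70.7 and 127 CPM after 2 weeks, and no non-tumor tissue exceeded 15 CPM. The log2 fold changes were -3.52 ± 0.48 (adjusted p = 3.56e-05) and -3.50 ± 0.48 (adjusted p = 3.25e-05). Fabp6, whose values at 2 weeks are given above, changed by -2.55 ± 0.71 (adjusted p = 0.00788) and -3.71 ± 0.71 (adjusted p = 0.00059). The first call was lost in limma-voom (adjusted p = 0.117), and the groups did not overlap under either strain.

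The receptors changed less. Nr1h4 was at 177, 113, 90.8 and 140 CPM under BF BSHlow and at 139, 180, 108 and 191 CPM under BF BSHhigh after 2 weeks. The log2 fold changes were -1.59 ± 0.21 (adjusted p = 1.97e-05) and -1.86 ± 0.21 (adjusted p = 5.86e-06), without overlap. Vdr was at 756, 592, 687 and 737 CPM and at 815, 702, 534 and 754 CPM, and the log2 fold changes were -0.91 ± 0.14 (adjusted p = 6.69e-05) and -1.03 ± 0.14 (adjusted p = 2.34e-05), also without overlap. Nr1i2, at 124, 117, 94.8 and 102 CPM and at 135, 129, 113 and 128 CPM, changed least. The log2 fold change was -0.35 ± 0.11 (adjusted p = 0.0184) under BF BSHlow, where the groups overlapped and the call was lost under other settings, and -0.59 ± 0.11 (adjusted p = 0.000583) under BF BSHhigh. Gpbar1 was the exception in direction. Its counts after 2 weeks were 1, 1, 2, 1, 1, 4, 4 and 2, all below the non-tumor tissues of the same strain in CPM. Without the low-count filter, its log2 fold change at 12 weeks was 1.81 (adjusted p = 0.0457) under BF BSHlow and 1.42 (adjusted p = 0.0767) under BF BSHhigh.

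**Figure D4:**
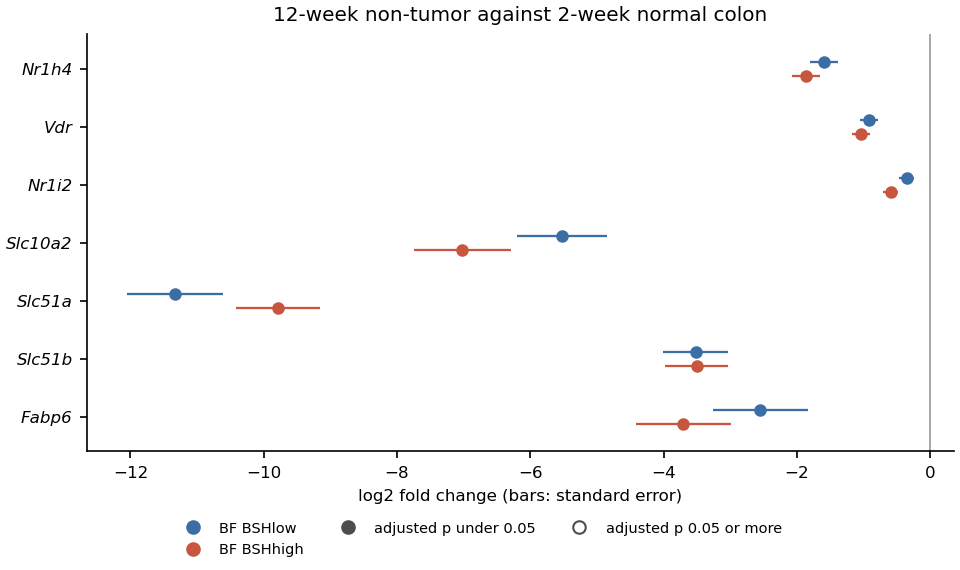
Log2 fold change of non-tumor tissues after 12 weeks against normal colon after 2 weeks for each member tested, under both strains. Points are edgeR estimates, filled where the adjusted p is under 0.05, and bars are standard errors. The estimates run from -11.33 for Slc51a under BF BSHlow to -0.35 for Nr1i2 under BF BSHlow, and no bar reaches 0.

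Genes that mark position along the gut differed between the same libraries. Hoxd13, a Hox gene of the hind end of the gut, was at 0.526 CPM or less in all 8 libraries of 2 weeks and between 7.09 and 152 CPM in the non-tumor tissues of 12 weeks. Hoxb6 was between 20.5 and 55.2 CPM at 2 weeks and at most 0.637 CPM at 12 weeks. Cdx2, a regulator of intestinal identity, was between 312 and 427 CPM at 2 weeks and between 6.31 and 59.7 CPM in non-tumor tissues. The 8 small intestinal enterocyte markers summed to between 841 and 2144 CPM at 2 weeks and to between 27.2 and 89.2 CPM at 12 weeks. Most of the sum at 2 weeks was Fabp2, at between 624.5 and 1900 CPM. Of 6 of these markers tested, 4 fell under BF BSHlow (Sis, Fabp2, Alpi and Apoa4) and 3 under BF BSHhigh (Alpi, Sis and Fabp2). Rbp2 was not among those that fell, and its levels at 2 and 12 weeks overlapped. The 6 differentiated colonocyte markers summed to between 13690 and 25520 CPM at 2 weeks and to between 1820 and 4565 CPM at 12 weeks, and 3 of 6 fell under each strain (Car1, Guca2a and Krt20), with Car1 at -5.17 and -6.08. Of 8 macrophage markers, 7 and 8 rose, and of 4 B and plasma cell markers, 4 and 3. The part of these cell types in the members' values was not tested. The small intestinal marker Lct was near 0 in all of these libraries, at 0.660 CPM or less. The time of colonization, the age of the mice and the stretch of colon or the layers sampled cannot be told apart in these groups.

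Within the 8 libraries of 2 weeks the transport genes rose and fell together. Over log2(CPM + 1), Slc10a2 and Slc51a had a Pearson r of 0.969 (exact permutation test, two-sided, adjusted p = 0.00193 over 6 pairs of genes) and a Spearman rho of 0.905 (adjusted p = 0.0137). For Slc10a2 and Nr1h4, r was 0.917 (exact permutation, adjusted p = 0.00193) and rho 0.952 (adjusted p = 0.00684). Slc10a2 with Slc51b, Slc51a with Slc51b and Slc10a2 with Fabp6 gave r of 0.84, 0.82 and 0.83 (exact permutation, adjusted p = 0.021 for each) and rho of 0.881, 0.833 and 0.762 (adjusted p = 0.0145, 0.0231 and 0.0442). Slc10a2 with Vdr gave r = 0.656 (exact permutation, adjusted p = 0.065) and rho = 0.69 (adjusted p = 0.0694).

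Replicate 3 of both strains had the lowest Slc10a2. Without these 2 libraries, the relation of Slc10a2 with Vdr was weaker and that with Nr1h4 was not, and r was 0.834 for Slc10a2 with Slc51a, 0.938 with Nr1h4, 0.811 with Slc51b, 0.707 with Fabp6 and 0.362 with Vdr, and 0.775 for Slc51a with Slc51b. Within each strain r was 0.956 and 0.982 for Slc10a2 with Slc51a and 0.93 and 0.962 for Slc10a2 with Nr1h4. The same 2 libraries had the lowest values of the position gene Osr2, at 45.0 and 54.0 CPM against 109 to 139 CPM in the other 6. Hoxb6 and Hoxb7 were also lowest in them, and Hoxd13 was near 0 throughout. Hoxb13 and Hoxa13 did not set them apart, with Hoxb13 at 60.8 CPM in BF BSHhigh 1 and 58.0 CPM in BF BSHhigh 3. Whether the stretch of colon sampled carried the shared variation was not tested.

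**Figure D5:**
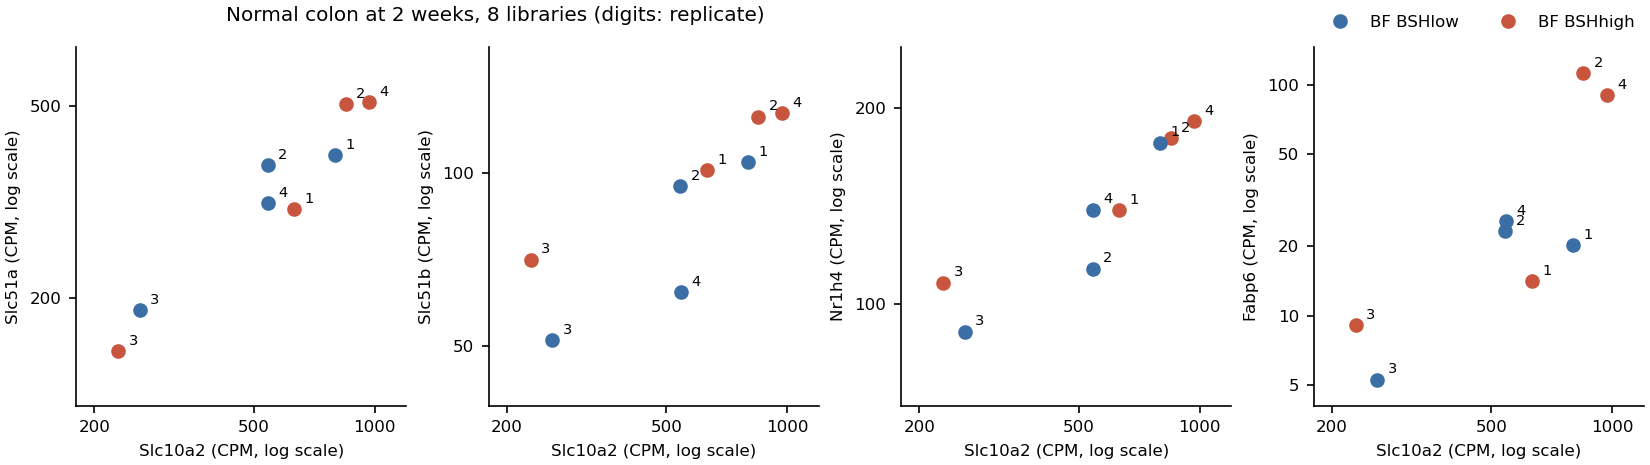
Level of Slc51a, Slc51b, Nr1h4 and Fabp6 against that of Slc10a2 in the 8 libraries of normal colon after 2 weeks. Both axes give CPM on log scales, each point is 1 library, blue for BF BSHlow and red for BF BSHhigh, and digits are replicate numbers. Replicate 3 of both strains lies at the low end of Slc10a2, at 259 and 230 CPM, and has the 2 lowest values of Slc51a, Nr1h4 and Fabp6.

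The partners and targets of the members were counted over lists of their own. Of 8 other bile acid receptors and RXR partners, 7 were tested between tumors and non-tumor tissues, and 1 was higher and 3 lower under both strains. Over all genes, 32.2% were lower and 33.3% higher under BF BSHlow, and 27.2% and 29.4% under BF BSHhigh. These shares also stand beside the lists that follow, whose counts are a description. S1pr2, a receptor for conjugated bile acids, was higher by 1.48 and 1.56 on the log2 scale. The xenobiotic receptor Nr1i3 (CAR) fell, at -7.73 and -3.61, with tumor means of 0.012 and 0.26 CPM. Nr1h3 (LXRα) and Rxra, the RXR partner of FXR, VDR and PXR, were also lower, with Rxra at -1.21 and -0.93. The other 12 transporters were mixed, with 4 of 9 tested higher and 4 lower under both strains. The organic anion exporters Abcc2 and Abcc4 were higher, at 5.06 and 5.56 for Abcc2 and 2.77 and 2.66 for Abcc4, together with Slco4a1 and Abcb4. Abcg2 and Abcc3 were lower, at -4.16 and -2.28 for Abcg2 and -2.60 and -1.43 for Abcc3, together with Slco2b1 and Atp8b1.

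Among 8 PXR targets, 6 were tested, of which 1 was higher and 5 lower in BF BSHlow tumors and 1 higher and 4 lower in BF BSHhigh tumors. The drug-metabolizing enzyme gene Cyp3a13 fell, at -6.23 and -3.46, as did the drug exporter gene Abcb1a, at -3.91 and -2.57. Cyp2b10, also a CAR target, was higher, at 4.64 and 5.69. Among 7 genes of the VDR pathway, 4 were tested, with 0 higher and 2 lower under BF BSHlow and 1 higher and 1 lower under BF BSHhigh. The calcium channel gene Trpv6 was the one that was higher, at 1.59. The manganese exporter gene Slc30a10 was at 0 CPM in BF BSHlow tumors against a mean of 3.59 CPM in non-tumor tissues, and its -9.03 is a description. Of 6 genes of the FGF15 pathway, 5 were tested, and 3 were lower under BF BSHlow and 2 under BF BSHhigh, including the coreceptor Klb at -4.56 and -3.18. In TGR5 signaling, Gcg, the glucagon gene of L cells, fell, at -9.48 and -4.06, with a mean of 0.024 CPM in BF BSHlow tumors. Dio2 was higher, at 4.71 and 5.34, with means of 0.61 and 0.37 CPM in non-tumor tissues. Over the list of 9 genes, 2 were higher and 5 lower under BF BSHlow and 1 higher and 3 lower under BF BSHhigh. Of 10 genes of bile acid synthesis and conjugation, 5 were tested, with 1 higher and 2 lower under BF BSHlow and 1 higher and 0 lower under BF BSHhigh, and Cyp7a1, the rate-limiting enzyme of the classical pathway in liver, was at 0 in every library.

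Of 11 regulators of the members in gut epithelium, 1 was higher and 7 lower in BF BSHlow tumors, and 1 higher and 6 lower in BF BSHhigh tumors. Onecut2 was higher by 6.71 under BF BSHlow. In BF BSHlow tumors Nr5a2 was at -6.15, Cdx2 at -3.91, Hnf4g at -3.54 and Cdx1 at -3.0. Between 2 and 12 weeks, 0 of 10 regulators tested rose and 5 fell under each strain, with Cdx2 at -4.63 and -3.79. Over all genes, 23.5% were lower and 25.6% higher at 12 weeks under BF BSHlow, and 22.7% and 27.0% under BF BSHhigh. Between BF BSHhigh and BF BSHlow tumors, 0 of the 54 genes tested from these 8 lists passed the adjusted threshold in edgeR's test, and 16 had an unadjusted p under 0.05, as did 1946 of the 15325 genes tested.

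Over time the targets followed no single direction. Tested were 5 PXR targets, 4 genes of the VDR pathway and 6 of the FGF15 pathway. Their counts stand beside the same shares over all genes between 2 and 12 weeks. Among the PXR targets, 1 rose under each strain and 3 and 4 fell, with Ugt1a1, which conjugates bilirubin, at -5.39 and -5.94 and Abcb1a at -2.23 and -2.67. Of the VDR pathway, 3 fell under both strains, Slc30a10, S100g and Atp2b1, of which S100g encodes a calcium-binding protein and Atp2b1 a calcium pump, and 1 rose under BF BSHhigh, Trpv6 at 2.89. In the FGF15 pathway, 3 rose under both strains (Klb, Fgfr1 and Fgfr3) and Malrd1, which raises FGF15 output in enterocytes, fell, at -7.86 and -7.09.

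The genes whose profiles over all 23 libraries were most like those of 5 members were found among 14395 genes by the Pearson correlation of log2 CPM, given as a description with no test. The points share the tissue differences described above. Vdr was most like Nr1i2, Sult1d1 and Nr3c2, each with r = 0.992. Nr1h4 was most like Rhbg (r = 0.99), Hsd3b3 and Adtrp (both 0.989). The closest to Slc51a were Abca12 (0.991), Ugt2b5 (0.99) and Cyp2c66 (0.986), and the closest to Slc51b were 1810065E05Rik (0.98), Tmem139 (0.979) and Hsd3b3 (0.976). Gpbar1, at few counts, reached only 0.851 with Ctxn3 and Lynx1 and 0.845 with Ighv6-3.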

How the data were processed

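RNA-seq was made from 23 colon samples, and the authors deposited 1 table of expected counts per gene, which they made from the aligned reads with RSEM. According to the study's methods and the submitters' processing notes, reads were trimmed with Cutadapt, aligned to mm10 with STAR and quantified with RSEM, whose versions are not given in the sources used here. The labels name a stranded total RNA kit and the methods a stranded mRNA kit. All 55449 gene identifiers used matched GENCODE M21. One gene with a text cell was left out, and its row was not analysed. Expected counts were rounded to whole numbers (4.24% of values were not whole, none of them a member's). The 3 columns of BF BSHhigh tumors repeat header names of BF BSHlow tumors and were placed by the study's own listing of the same values, by group and without numbers. No replicate pair looked like repeats of 1 library (chi-square per degree of freedom 17.7 to 138 over 33 pairs).

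Genes passed filterByExpr, libraries were scaled by TMM, and groups were compared by edgeR 4.0.16 quasi-likelihood tests (R 4.3.3) with Benjamini-Hochberg adjustment over all genes tested at a threshold of 0.05, checked on simulated data. Tumor comparisons within a strain, the interaction and the comparisons over time each used 1 fit over 4 groups, and the strain comparisons used only the groups compared. Log2 CPM used a prior count of 2. Intervals of log2 fold changes use the t distribution with the total degrees of freedom of the quasi-likelihood fit, residual plus prior, and summed-count ratios have exact 95% intervals. Alternatives were DESeq2 1.42.0, limma-voom (limma 3.58.1), other scalings, filters and samples in the fit, a block for the replicate number and every fit with 1 library removed. All 10 members are named. Genes named as changed from a list were past the threshold with a mean of at least 1 CPM, from the 4 largest changes in each direction. Not all genes that meet this rule are named. For likeness, the 3 closest genes of 5 members are given. Genes of position along the gut were added after their values were seen. The members and lists were chosen with earlier results of these data known, and 1 gene of the list of other receptors is not reported here. Python 3.11.15, scipy 1.17.1 and matplotlib 3.10.9 served for summaries and figures.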

Additional observations from a re-analysis of the deposited data

Results flagged for a closer look

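Among 39 groups of 4 libraries, 6 held a library of a member far from the other 3, where chance gives about 1 in 20. BF BSHhigh non-tumor tissue 2 stood high in both Slc10a2, at 10.9 CPM, and Slc51a, at 1.36 CPM. BF BSHlow non-tumor tissue 4 was high in Slc51b, at 14.7 CPM. Among BF BSHlow tumors, tumor 1 was high in Slc51a at 0.386 CPM, tumor 2 in Gpbar1 at 0.253 CPM, and tumor 4 was low in Nr1i2 at 3.14 CPM. The Slc51a and Gpbar1 tumor values rest on 8 and 5 counts.

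The difference between BF BSHhigh and BF BSHlow was larger in tumors than in non-tumor tissues for Vdr, by 1.93 on the log2 scale (edgeR adjusted p = 0.0227), and for Nr1i2, by 1.73 (adjusted p = 0.0429). Neither call was stable. That of Vdr was lost with limma-voom (adjusted p = 0.0988) and without tumor a (edgeR adjusted p = 0.0673). That of Nr1i2 was lost with limma-voom (adjusted p = 0.126), with RLE scaling (edgeR adjusted p = 0.0509) and in most fits with 1 library left out.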

How the results depend on the processing

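In no alternative did a called member change direction. The number of members that differed between BF BSHhigh and BF BSHlow tumors went from 0 to 3 with DESeq2, 3 without the low-count filter and 4 with 1 fit over all libraries, and ranged from 0 to 1 when single libraries were left out, with Slc51b called at 6.64 on the log2 scale (adjusted p = 0.0313) without BF BSHhigh tumor c. The number with a larger BSH difference in tumors than in non-tumor tissues went from 2 to 4 with DESeq2, 0 with limma-voom and 1 with RLE scaling, and ranged from 0 to 4 when single libraries were left out. It was 0 without BF BSHhigh non-tumor tissue 1 or 4 or tumor a, 4 without tumor c, and 1 without BF BSHlow non-tumor tissue 1, 3 or 4, BF BSHhigh non-tumor tissue 2 or 3, or BF BSHlow tumor 2, 3 or 4. Wherever 1 was left, Nr1i2 was the member lost. Without BF BSHlow tumor 1, Nr1i2 was also lost (edgeR adjusted p = 0.0678), and Nr1h4 passed instead (adjusted p = 0.0472). The cause was not tested.

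Leaving out single libraries gave 5 to 6 members lower in BF BSHlow tumors, 4 to 5 changed in BF BSHhigh tumors, 6 to 8 over time under BF BSHlow and 7 to 8 under BF BSHhigh, the added member being Gpbar1, and 0 between strains in non-tumor tissues and in normal colon. For single members, the call of Nr1i2 over time under BF BSHlow was lost with library size scaling (-0.11, adjusted p = 0.367), with 1 fit over all libraries (adjusted p = 0.197) and without BF BSHlow normal colon 1 or 2 or non-tumor tissue 2, and that of Fabp6 with limma-voom (adjusted p = 0.117). Slc51b passed in BF BSHhigh tumors with limma-voom (adjusted p = 0.0328) and with 1 fit over all libraries (adjusted p = 0.0371). Scaling by library size moved the median of all genes by 0.34 and 0.30 on the log2 scale between tumors and non-tumor tissues and by 0.23 and 0.31 over time.

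A replicate block gave 5 members in BF BSHlow tumors, 0 between strains in both tissues, and 6 and 7 over time, and lost Nr1i2 under BF BSHlow (-0.36, adjusted p = 0.0939). Same-numbered libraries deviated together with r between -0.18 and 0.26, so the numbers were not taken to pair libraries. No paired analysis was possible for BF BSHhigh tumors because they have no numbers. Members with few counts limit what this depth can show.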
